A study of Homo sapiens with 12 samples.

Results

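Homologous recombination and the Fanconi anaemia pathway were described through 34 genes, taken by gene symbol from a table of mean transcript levels in 4 related human breast epithelial cell lines. All 34 symbols were found among the 59427 in the table, and all 34 were among the 13108 genes with a mean of at least 1 TPM (transcripts per 1000000) in at least 1 line. The genes were taken by name, without a rule on their values, but with earlier results of these data known. MCF10A is an immortalised, non-tumorigenic line, labelled normal in the study. MCF10AT1 is the line transformed with HRAS G12V, an activated RAS allele. MCF10DCIS stands for ductal carcinoma in situ and MCF10CA1a for metastatic cancer, and as background both are known to descend from MCF10AT1, so that all 3 derived lines share the HRAS history. Each stage is represented by 1 cell line, so stage and line cannot be told apart. Total RNA was sequenced from 3 libraries of each line, 12 in all, from cells grown in 1 medium with horse serum, human insulin, EGF, cholera toxin and hydrocortisone.

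The table holds 1 value per gene and line, the authors' mean. It gives no spread between libraries, and the read depth is unknown, so every difference below is a description of 4 means, without SD, standard error or p-value, and no order of lines was tested. A difference is written as log2(TPM + 1) of the first line minus the second. Genes count as higher or lower below where the difference reached 1, a 2-fold difference of TPM + 1. This scale understates the differences of genes with low TPM.

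Homologous recombination repairs a double-strand break by copying from the sister chromatid. The MRN complex and the kinase ATM sense the break, nucleases and helicases resect its ends, RPA coats the single strand, and BRCA1, PALB2 and BRCA2 prepare that strand to invade the intact copy. The Fanconi pathway acts where the strands are crosslinked: a core ubiquitin ligase modifies the FANCD2-FANCI pair, which directs removal of the crosslink. Inherited loss of BRCA1, BRCA2 or PALB2 predisposes to breast cancer, and many genes of both pathways are transcribed mainly in dividing cells.

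The promoters of 5 genes with some of the largest differences from MCF10A are shown as the RefSeq sequence of GRCh38.p14, read 5′ to 3′ on each gene's own strand, from inside the window of 250 bases before to 50 after the start and outside annotated exons. They are FANCE (chr6:35452138-35452337, plus strand), BARD1 (chr2:214809712-214809911, minus strand), PALB2 (chr16:23641311-23641391, minus strand), BRCA2 (chr13:32315345-32315473, plus strand) and FANCA (chr16:89816658-89816857, minus strand). FANCE was the member with the largest positive difference from MCF10A, and the other 4 were among the lowest in MCF10DCIS. Capitals mark matches to E2F-type, CHR-type or CCAAT letters on either strand.
FANCE promoter: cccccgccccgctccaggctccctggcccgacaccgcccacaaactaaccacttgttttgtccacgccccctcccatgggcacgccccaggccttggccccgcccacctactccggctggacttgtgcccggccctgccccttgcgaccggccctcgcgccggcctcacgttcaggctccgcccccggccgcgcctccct
BARD1 promoter: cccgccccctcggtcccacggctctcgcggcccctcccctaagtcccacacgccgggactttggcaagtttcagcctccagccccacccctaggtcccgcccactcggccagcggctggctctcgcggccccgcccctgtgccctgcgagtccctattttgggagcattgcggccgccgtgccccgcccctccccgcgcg
PALB2 promoter: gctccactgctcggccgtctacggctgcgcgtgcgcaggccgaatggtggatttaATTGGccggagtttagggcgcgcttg
BRCA2 promoter: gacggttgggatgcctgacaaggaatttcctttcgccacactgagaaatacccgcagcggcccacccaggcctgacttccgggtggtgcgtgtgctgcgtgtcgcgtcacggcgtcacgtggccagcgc
FANCA promoter: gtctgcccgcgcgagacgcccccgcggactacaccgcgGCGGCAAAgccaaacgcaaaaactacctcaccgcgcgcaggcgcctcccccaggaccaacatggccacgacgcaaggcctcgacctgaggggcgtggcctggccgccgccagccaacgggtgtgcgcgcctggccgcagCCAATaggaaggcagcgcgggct
FANCA held both an E2F-type match, in the strand opposite to TTTGCCGC, and a CCAAT match. PALB2 held a CCAAT match on the opposite strand. No searched letters occurred in the stretches shown for FANCE, BARD1 and BRCA2, which says nothing of the factors that bind there.

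RefSeq promoter windows were at hand for 29 of the 34 genes. Letters of the E2F type (TTTCCCGC, TTTGGCGC, TTTCGCGC or TTTGCCGC, both strands), as bound by the E2F factors that drive S-phase genes, were found in 5 of the 29 windows (17.2%), against 3.33% of 27305 promoters of the same length. The 5 genes were EXO1, FANCA, FANCC, FANCD2 and XRCC2. CHR-type letters (TTTGAA or TTCGAA, both strands), an element of genes expressed in late cell cycle, occurred in 4 of 29 (13.8%) against 16.6% of all promoters. CCAAT occurred in 13 of 29 (44.8%) against 35.7%. The 27305 promoters were not limited to genes expressed in these lines, while all members were expressed, so the 2 sets are unlike. Without a test, the 5 genes with E2F-type letters had a median difference of -0.37 in MCF10DCIS against MCF10A on the rescaled TPM scale defined below, beside -0.033 for the 24 without. In MCF10AT1 the medians were -0.034 with and -0.077 without the letters, and in MCF10CA1a 0.063 and 0.14. A match describes letters and is not a binding site.

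The scale of the table bears on every member. The share of TPM in structural and small non-coding RNAs was 66.02% in MCF10DCIS, 57.6% in MCF10A, 59.8% in MCF10CA1a and 59.98% in MCF10AT1, so less was left for other genes in MCF10DCIS. The median of all 13108 genes in MCF10DCIS differed from MCF10A by -0.38. Each value was therefore also taken as rescaled TPM, set to a total of 1000000 without mitochondrial, ribosomal protein, structural and small non-coding genes, on which the median of all genes differed by -0.094. In each line 11 of the 12 breast epithelial markers reached 1 TPM, all but TP63 in MCF10A and all but KRT19 in the derived lines. The summed level of the 12 was 3858, 2421, 3839 and 3629 TPM in MCF10A, MCF10AT1, MCF10DCIS and MCF10CA1a. This sum joins markers that moved in opposite directions. In the same order, CDH1 was at 149, 21.3, 42.3 and 51.9 TPM and ITGB4 at 72.9, 136, 563 and 330 TPM. Of 8 fibroblast markers 1 or 2 reached 1 TPM in a line, with FAP at 15.8 TPM in MCF10A, and the summed level ran from 3.57 to 16.6 TPM. Of 6 leukocyte markers 1 or 2 reached 1 TPM, with sums of 6.26 to 17.6 TPM, while the pan-leukocyte gene PTPRC stayed at or below 0.0128 TPM. Of 4 endothelial markers at most 1 reached 1 TPM.

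The summed level of the 34 genes was 419.7, 343, 259 and 366 TPM in MCF10A, MCF10AT1, MCF10DCIS and MCF10CA1a. On the rescaled scale the sums were 1224, 1097, 978 and 1183 TPM in the same order. MCF10DCIS was lowest and MCF10A highest on both. In these bulk samples fewer cells in a cell cycle phase and less RNA per cell cannot be told apart. The median member stood at 8.22, 7.40, 5.81 and 7.71 TPM, beside 8.29, 7.60, 5.89 and 7.73 TPM for all genes, so the repair genes sat in the middle of the expressed genes in each line. As deposited, MCF10DCIS was the lowest line for 28 of the 34 genes, and on the rescaled scale for 17. MCF10A was the highest line for 16 genes as deposited and 13 rescaled, and MCF10CA1a for 12 on both scales. These counts of lowest and highest lines were not taken over all genes. In MCF10DCIS as deposited, 30 of 34 members and 9873 of all 13108 genes were below MCF10A. Rescaled, 21 of 34 members and 7266 of 12905 genes were.

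**Figure D1:**
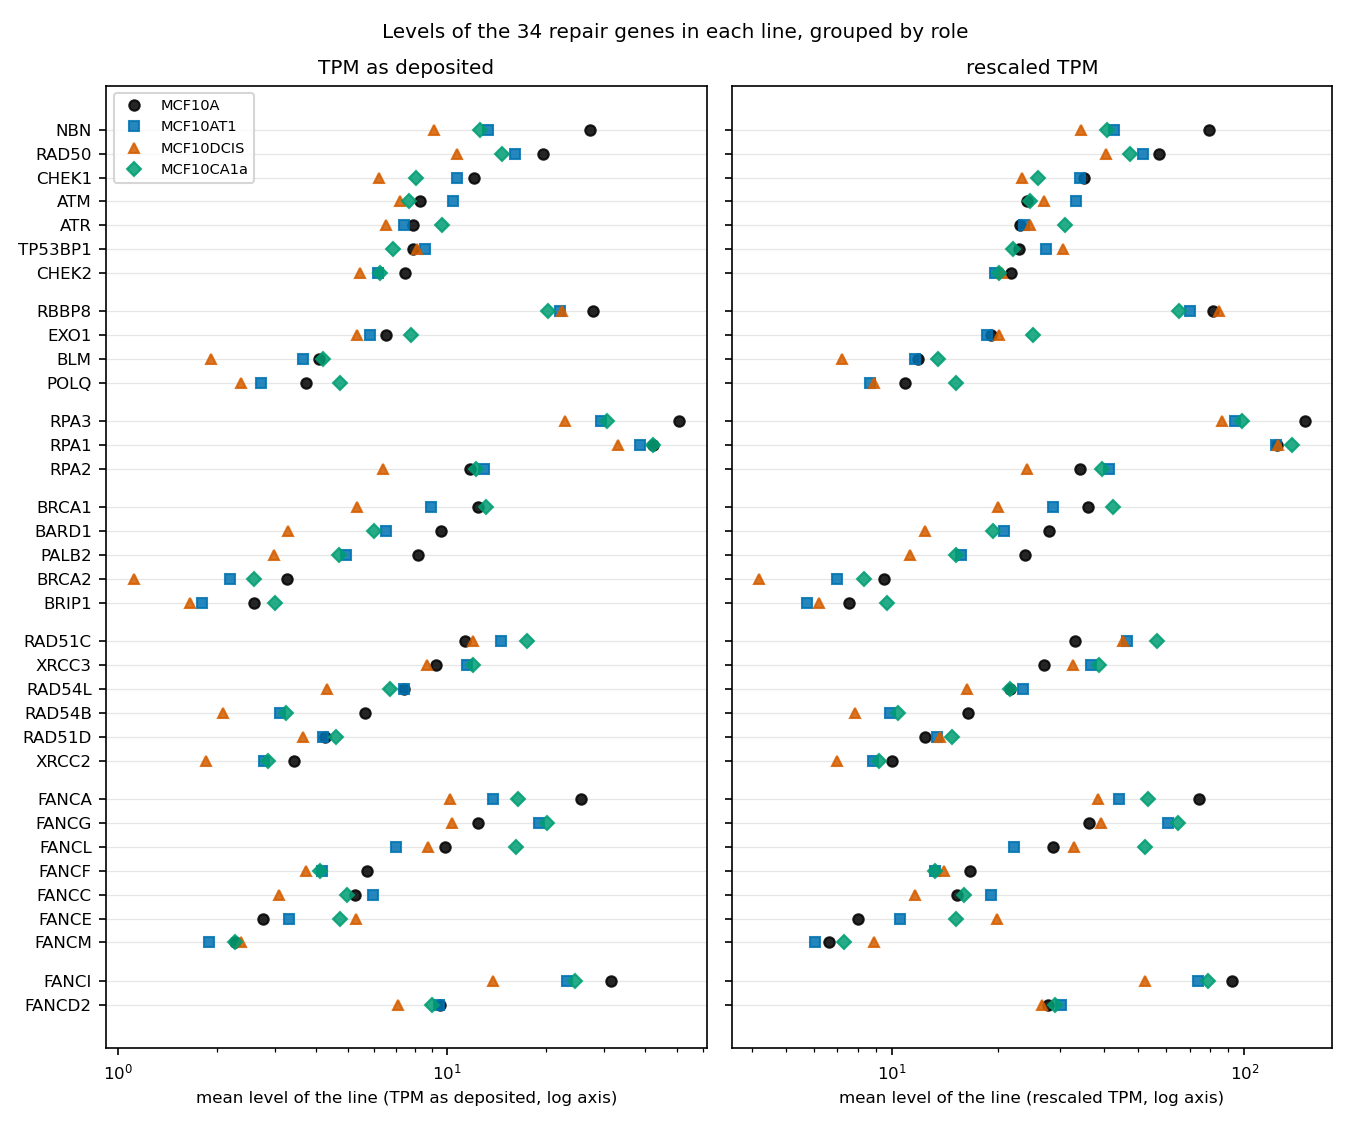
Mean level of each of the 34 repair genes (horizontal log axis, TPM as deposited on the left and rescaled TPM on the right), grouped by role, with 1 point per line and no error bars because the table gives 1 mean per line. The MCF10DCIS triangle is the leftmost point for 28 genes as deposited and for 17 after rescaling, counts that were not taken over all genes.

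No member passed the 2-fold rule in MCF10AT1 against MCF10A, 9 did in MCF10DCIS and 1 in MCF10CA1a. In MCF10AT1 none was higher and none lower, where 3.39% of all genes were higher and 5.87% lower, and the members' median was -0.20 beside -0.066 for all genes. In MCF10DCIS none was higher against 3.56% of all genes, and 9 of 34 (26.5%) were lower against 14.8%. The 9 were NBN, BARD1, FANCA, PALB2, FANCI, RPA3, RAD54B, BRCA1 and BRCA2. The members' median was -0.50 beside -0.38 for all genes. In MCF10CA1a none was higher, against 5.97% of all genes, and 1, NBN, was lower, against 7.14%, with medians of -0.085 and -0.074. These 3 comparisons share the MCF10A values and are not independent of each other.

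After rescaling, the count in MCF10DCIS came close to the background. FANCE was higher, 1 of 34 where 7.84% of all genes were, and NBN, BARD1, PALB2 and BRCA2 were lower, 4 of 34 (11.8%) where 10.3% of all genes were. The members' median was then -0.25 beside -0.094. With median-of-ratios scaling or quantile normalization NBN alone was lower, where 6.44% and 6.19% of all genes were, and FANCE alone was higher, where 6.53% and 6.41% were. No member passed the rule on the rescaled scale in MCF10AT1, where 5.83% of all genes were higher and 6.64% lower, or in MCF10CA1a, where 9.46% were higher and 7.77% lower. The members' rescaled medians were -0.13 in MCF10AT1 and 0.049 in MCF10CA1a, beside 0.041 and 0.047 for all genes. The sign of the members' median in MCF10CA1a thus turned with the scale.

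**Figure D2:**
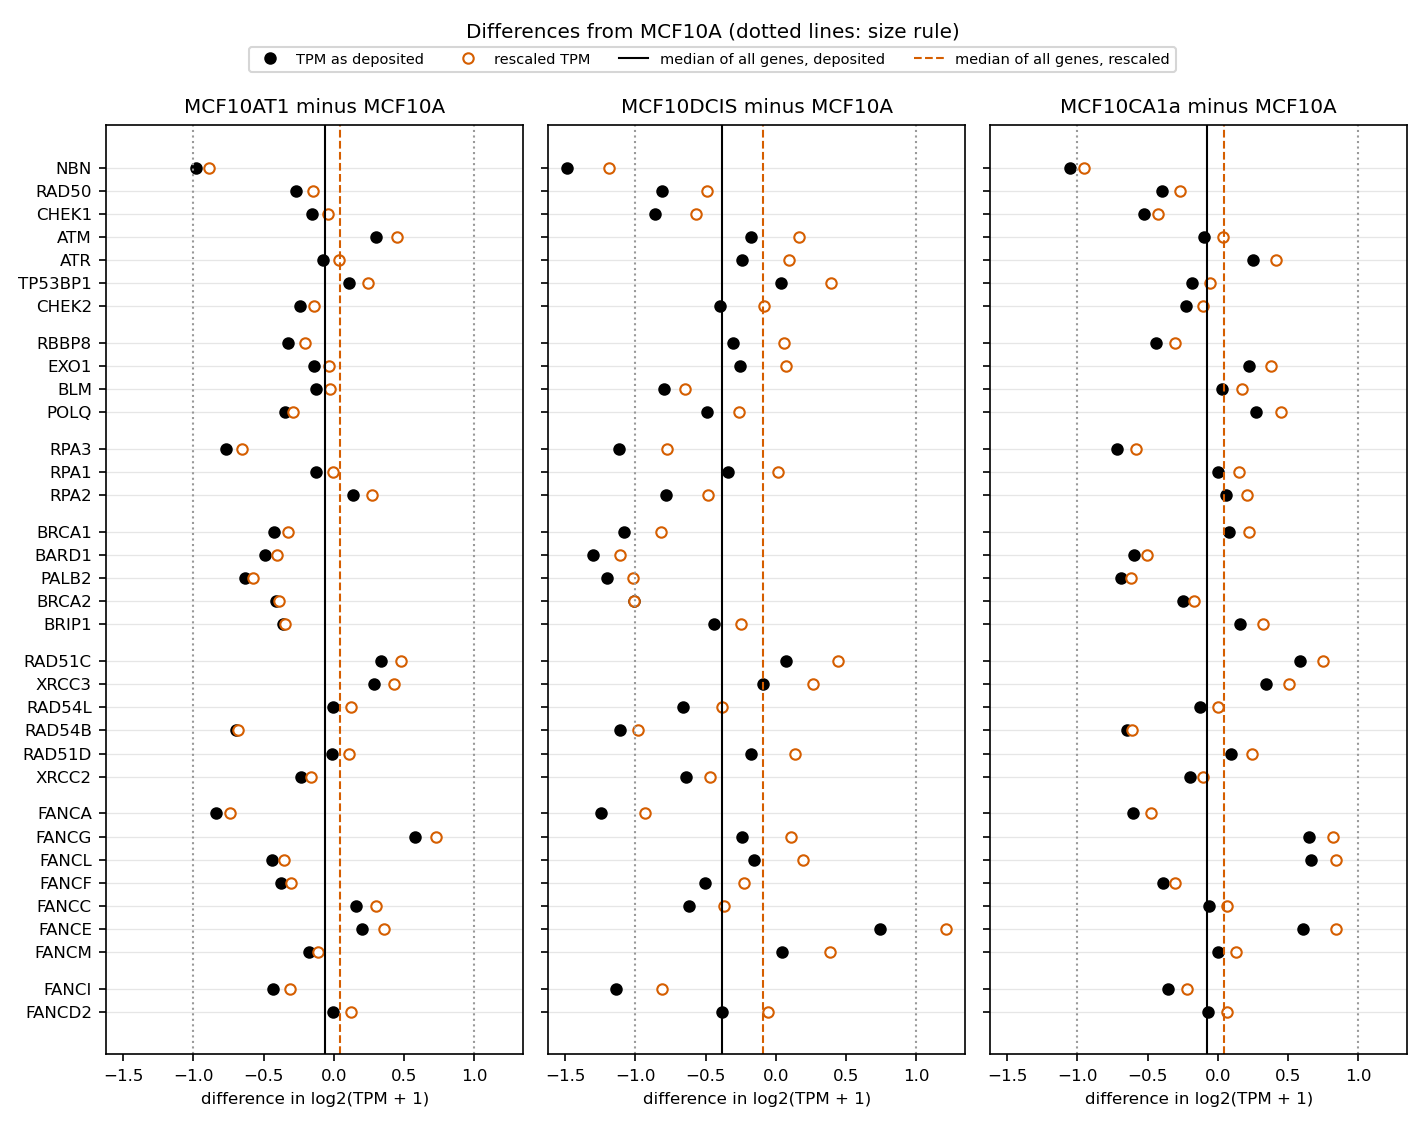
Log2(TPM + 1) difference of each repair gene from MCF10A in the 3 derived lines, as deposited and rescaled, with dotted lines at the 2-fold rule, solid and dashed lines at the medians of all genes on the 2 scales, and no error bars. As deposited, 9 genes lie beyond the lower line in MCF10DCIS and only NBN does in MCF10CA1a, and after rescaling FANCE lies beyond the upper line in MCF10DCIS.

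Among the genes that sense breaks and hold the cell cycle, NBN differed most. NBN, the nibrin subunit that brings the MRN complex to breaks and binds ATM, is on chromosome 8. Its level was 27.3, 13.3, 9.11 and 12.6 TPM in MCF10A, MCF10AT1, MCF10DCIS and MCF10CA1a, an order of lines that holds for the values below as well. MCF10A stood apart, above every derived line, and the differences of the derived lines from it were -0.98, -1.48 and -1.06. On the rescaled scale they were -0.89, -1.19 and -0.95, so only MCF10DCIS passed the rule on both scales. RAD50, the coiled-coil subunit that tethers the ends, was at 19.6, 16.1, 10.7 and 14.7 TPM, lowest in MCF10DCIS with a difference of -0.81. NBN was above RAD50 in MCF10A and below it in each derived line.

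The 2 apical kinases were highest in different lines. ATM, which responds to double-strand breaks, was at 8.26, 10.4, 7.17 and 7.65 TPM and highest in MCF10AT1. ATR, which responds to single-stranded DNA at stalled forks, was at 7.90, 7.41, 6.54 and 9.61 TPM and highest in MCF10CA1a. The ATM over ATR ratio within a line, which does not depend on scaling, was 1.05, 1.41, 1.10 and 0.796, above 1 in all lines but MCF10CA1a. CHEK1, the checkpoint kinase that ATR activates, was at 12.1, 10.7, 6.20 and 8.05 TPM, with a difference of -0.86 in MCF10DCIS that became -0.57 after rescaling. CHEK2, the kinase downstream of ATM, was at 7.45, 6.14, 5.42 and 6.24 TPM, and its sign in MCF10DCIS against MCF10A turned between scalings. TP53BP1, which shields ends from resection and favours end joining, was at 7.87, 8.57, 8.09 and 6.82 TPM and lowest in MCF10CA1a. Of the 7, 1 passed the rule as lower in MCF10DCIS and in MCF10CA1a, NBN in both.

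None of the 4 genes for resection, helicase activity and polymerase theta-mediated end joining passed the rule in a comparison with MCF10A. RBBP8 (CtIP), which starts resection with MRN, was at 27.8, 22.02, 22.4 and 20.3 TPM, highest in MCF10A as deposited. Rescaled, MCF10DCIS was the highest line for RBBP8, at 84.5 TPM beside 81.3 in MCF10A, so its sign there turned with the scaling. EXO1, a nuclease that extends resection, was at 6.53, 5.82, 5.32 and 7.77 TPM, and MCF10CA1a was highest. BLM, the helicase mutated in Bloom syndrome, was at 4.07, 3.63, 1.91 and 4.18 TPM. MCF10DCIS was the low line for BLM, with a difference from MCF10A of -0.80 as deposited and -0.65 rescaled, and the other 3 lines lay close together. POLQ, the polymerase of theta-mediated end joining, a route used when recombination is deficient, was at 3.72, 2.72, 2.36 and 4.71 TPM. MCF10CA1a was the highest line for EXO1, BLM and POLQ on both scales, and the median of the 4 genes there was 0.13 as deposited and 0.28 rescaled, beside -0.074 and 0.047 for all genes.

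The 3 subunits of RPA, the trimer that protects single-stranded DNA in replication and repair, did not keep a fixed ratio of transcripts. RPA1, the large DNA-binding subunit, was at 42.3, 38.6, 33.1 and 42.4 TPM. RPA2, the subunit phosphorylated after damage, was at 11.7, 12.9, 6.40 and 12.3 TPM, and RPA3, the smallest, at 50.8, 29.4, 22.9 and 30.6 TPM. RPA3 was the most abundant member in MCF10A and RPA1 in each derived line. RPA3 over RPA1 was 1.20, 0.763, 0.691 and 0.720, above 1 in MCF10A only. RPA2 over RPA1 was 0.277, 0.336, 0.193 and 0.289, lowest in MCF10DCIS. RPA3 in MCF10DCIS differed from MCF10A by -1.12 as deposited, past the rule, and by -0.77 rescaled, short of it, while the sign of RPA1 there turned with the scaling.

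The BRCA complexes were the role group with the lowest median in MCF10DCIS: 4 of 5 genes passed the rule as lower as deposited, where 14.8% of all genes did, and 3 of 5 rescaled, where 10.3% did. The deposited median was -1.08 beside -0.38 for all genes. BRCA1 (chr17:43044295-43170245, GRCh38, GENCODE 29), the ubiquitin ligase subunit that promotes resection and recruits PALB2, was at 12.4, 8.95, 5.31 and 13.1 TPM. Its level in MCF10CA1a was about that of MCF10A and its level in MCF10DCIS was below both. BARD1 (chr2:214725646-214809711), the obligate partner of BRCA1, was at 9.58, 6.52, 3.29 and 6.005 TPM. BARD1 was below MCF10A in each derived line, by differences of -0.49, -1.30 and -0.60. BARD1 over BRCA1 was 0.775, 0.729, 0.619 and 0.458, lowest in MCF10CA1a, where BRCA1 was high and BARD1 was not.

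PALB2 (chr16:23603160-23641310), which links BRCA1 to BRCA2, was at 8.17, 4.91, 2.98 and 4.70 TPM, with differences of -0.63, -1.20 and -0.69 from MCF10A. BRCA2 (chr13:32315474-32400266), which acts downstream of PALB2 in strand invasion, was at 3.26, 2.19, 1.11 and 2.58 TPM, close to the minimum of 1 TPM in MCF10DCIS. PALB2 over BRCA2 was 2.51, 2.24, 2.68 and 1.82. BRIP1, a helicase bound to BRCA1, was at 2.59, 1.80, 1.65 and 2.997 TPM and did not pass the rule in a comparison with MCF10A. The MCF10DCIS differences of BRCA1, BARD1, PALB2 and BRCA2 from MCF10A were -1.08, -1.30, -1.20 and -1.01 as deposited. Rescaled, they were -0.82, -1.11, -1.02 and -1.01, and BRCA1 fell short of the rule. Over the 7 scalings, filters and pseudocounts tried, the 4 stayed below 0 wherever the filter kept them, with BRCA1 between -1.21 and -0.65 and BARD1 between -1.52 and -0.88. With median-of-ratios scaling or quantile normalization none of the 4 passed the rule. The added 1 weighs less on the larger rescaled values than on the other scales, so low genes are not compared alike. BRCA2 in MCF10DCIS over MCF10A was 0.342 in TPM and 0.442 in rescaled TPM, yet its difference was -1.01 on both.

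RAD51C, RAD51D, XRCC2, XRCC3 and the RAD54 genes, which assist strand invasion, did not share 1 order of lines, and none was higher by the rule in a comparison with MCF10A. RAD51C was at 11.4, 14.6, 12.01 and 17.5 TPM, and XRCC3, its binding partner, at 9.28, 11.5, 8.67 and 12.02 TPM. MCF10CA1a was the highest line for both, with RAD51C at 0.58 against MCF10A as deposited and 0.75 rescaled. RAD51D was at 4.24, 4.20, 3.64 and 4.60 TPM, and XRCC2, which binds RAD51D, at 3.43, 2.77, 1.85 and 2.86 TPM. XRCC2 was lowest in MCF10DCIS, where RAD51D over XRCC2 was 1.97 beside 1.24 in MCF10A. RAD54L, the RAD54 motor that remodels DNA during strand exchange, was at 7.40, 7.38, 4.32 and 6.72 TPM, and its relative RAD54B, on chromosome 8, at 5.64, 3.10, 2.08 and 3.23 TPM. RAD54B over RAD54L was 0.761, 0.420, 0.481 and 0.481, and RAD54B passed the rule as lower in MCF10DCIS as deposited (-1.11) but not rescaled (-0.98). RAD54B overlaps FSBP on the same strand, whose level was 1.20, 0.539, 0.578 and 0.619 TPM, and the part of shared reads in these values was not tested.

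Subunits of the Fanconi core complex did not share 1 order of lines either. FANCA (chr16:89737549-89816657), a large scaffold subunit, was at 25.5, 13.8, 10.2 and 16.5 TPM, highest in MCF10A, and its differences from MCF10A were -0.84, -1.24 and -0.60. FANCG, which binds FANCA directly, was at 12.4, 18.98, 10.4 and 20.1 TPM, highest in MCF10CA1a and MCF10AT1. FANCG over FANCA was 0.486, 1.37, 1.01 and 1.22, below 1 in MCF10A only. FANCE (chr6:35452356-35467103), which contacts FANCD2, was at 2.75, 3.31, 5.28 and 4.72 TPM, lowest in MCF10A and highest in MCF10DCIS. Its differences from MCF10A were 0.20, 0.74 and 0.61 as deposited and 0.36, 1.21 and 0.84 rescaled. The range of the MCF10DCIS value over the same 7 settings was 0.74 to 1.21, always above 0. FANCE over FANCA was 0.108, 0.239, 0.517 and 0.286, lowest in MCF10A and highest in MCF10DCIS.

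FANCL (chr2:58159243-58241372), the ubiquitin ligase subunit of the core complex, was at 9.84, 6.97, 8.73 and 16.2 TPM. MCF10CA1a was the high line and MCF10AT1 the low one. FANCC, which joins FANCE and FANCF in a subcomplex, was at 5.24, 5.97, 3.07 and 4.96 TPM, and FANCF, an adaptor, at 5.69, 4.15, 3.72 and 4.10 TPM. FANCC was highest in MCF10AT1 and lowest in MCF10DCIS, and FANCF was highest in MCF10A. FANCM, the translocase that anchors the core complex to DNA, was at 2.27, 1.89, 2.36 and 2.26 TPM, the least abundant member in MCF10A. Among the 7 genes, as deposited, FANCA alone was lower by the rule in MCF10DCIS, and none was higher in a comparison with MCF10A.

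The substrates of the core complex also differed from each other. FANCI (chr15:89243949-89317261) was at 31.6, 23.1, 13.8 and 24.5 TPM, and FANCD2, with which it forms the clamp that ubiquitin locks on DNA, at 9.52, 9.48, 7.08 and 9.02 TPM. FANCI in MCF10DCIS differed from MCF10A by -1.14 as deposited and -0.81 rescaled, while FANCD2 differed by -0.38 and -0.054, with a sign that turned under other scalings. FANCD2 over FANCI was 0.301, 0.410, 0.513 and 0.368, lowest in MCF10A and highest in MCF10DCIS.

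**Figure D3:**
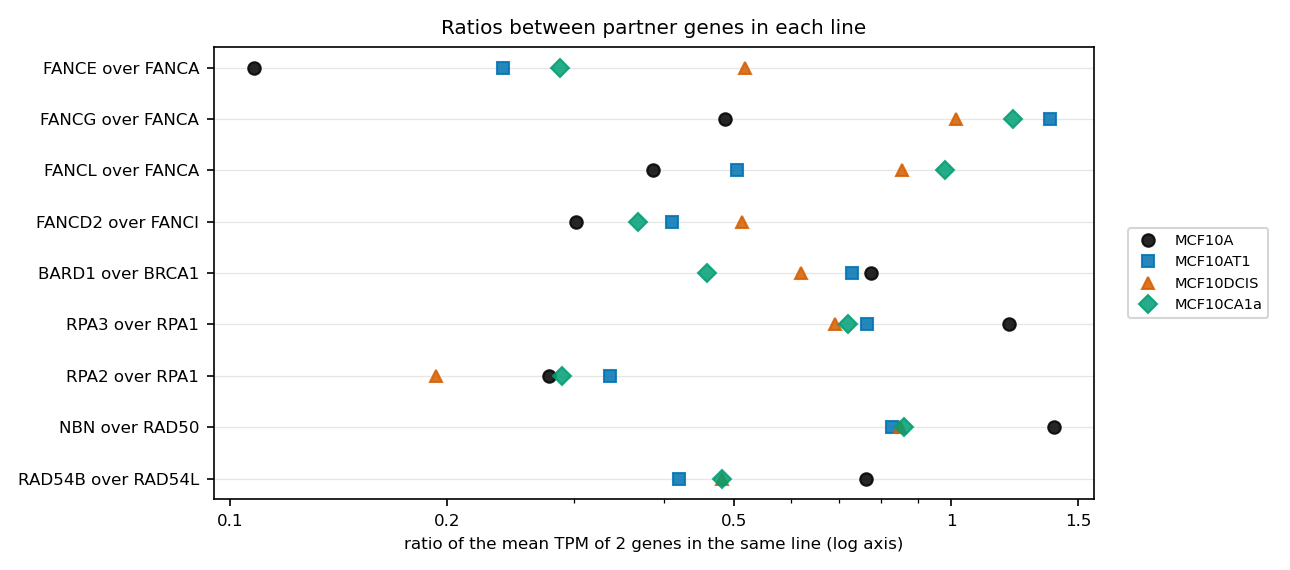
Ratio of TPM between partner genes within each line (log axis), with 1 point per line and no error bars. RPA3 over RPA1 and NBN over RAD50 lie above 1 in MCF10A and below 1 in the 3 derived lines, and FANCE over FANCA is lowest in MCF10A and highest in MCF10DCIS.

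The balance of TP53BP1, which opposes resection, to BRCA1, which promotes it, was 0.636, 0.958, 1.52 and 0.521 in MCF10A, MCF10AT1, MCF10DCIS and MCF10CA1a. TP53BP1 exceeded BRCA1 in MCF10DCIS only. The numerator changed little over the lines and the order of lines in the ratio was the reverse of that in BRCA1. NBN over RAD50 was 1.39, 0.827, 0.848 and 0.859, close to each other in the 3 derived lines. These ratios compare transcripts per length and say nothing of protein.

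Few members passed the 2-fold rule between derived lines. Against MCF10AT1, no member was higher in MCF10DCIS and none lower, where 3.23% of all genes were higher and 7.51% lower, with medians of -0.39 for members and -0.30 for all genes. Against MCF10DCIS, BRCA1 was higher in MCF10CA1a (1.16), 1 of 34 where 6.03% of all genes were, and none was lower against 1.35%. The members' median there was 0.47 beside 0.30, and 30 of 34 were above 0, as were 10397 of all 13108 genes. BRCA1 remained past the rule after rescaling at 1.04 but not with median-of-ratios scaling or quantile normalization. Against MCF10AT1, FANCL was higher in MCF10CA1a (1.11 as deposited, 1.19 rescaled), 1 of 34 where 6.0% of all genes were, and none was lower against 3.97%. FANCL passed the rule in all 7 settings, each a scaling, filter or pseudocount.

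Position in the genome went with part of the pattern. Genes of chromosomes 7, 8 and 16 had lower medians in the derived lines than in MCF10A on the rescaled scale, at -0.46, -0.66 and -0.51 for chromosome 7 in MCF10AT1, MCF10DCIS and MCF10CA1a, and similar values for the other two. Chromosome 9 stood at 0.57, -0.094 and 0.56. The 6 members on chromosomes 7, 8 and 16 are PALB2, XRCC2, RAD54B, NBN, FANCA and RPA3, and all 6 were below 0 in each derived line, with medians of -0.67, -0.96 and -0.60. The 26 members outside chromosomes 7, 8, 9 and 16 had medians of -0.037, -0.069 and 0.14. Their chromosomes were not all alike. Chromosome 18, which holds RBBP8, stood at -0.23, -0.41 and -0.18. Chromosomes 15 and 17 stood at 0.29 and 0.21 in MCF10DCIS. FANCG, on chromosome 9, was at 0.73, 0.11 and 0.82, high in MCF10AT1 and MCF10CA1a as its chromosome was, and FANCC, also there, at 0.30, -0.37 and 0.063. These chromosomes were known from earlier results on the same table, and the part of chromosome copy number in any member's value was not tested.

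Each member was then set beside the median of all expressed genes within 5 Mb on each side, on the rescaled scale. In MCF10DCIS against MCF10A, NBN was at -1.19 and its neighbours at -0.91, RAD54B at -0.98 and its neighbours at -0.80, and RPA3 at -0.77 and its neighbours at -0.68. For these 3 genes the value minus that of the neighbours was between -0.28 and -0.10. PALB2 was at -1.02 beside -0.54, FANCA at -0.93 beside -0.48, and XRCC2 at -0.47 beside -0.58. The members furthest below the median of their neighbours were BARD1, BRCA1, BRCA2 and POLQ. Of their 50, 163, 27 and 44 neighbours, 10%, 8.59%, 11.1% and 11.4% were lower still than the member. BARD1, BRCA1 and BRCA2 were at -1.11, -0.82 and -1.01, beside -0.13, 0.10 and -0.23 for their neighbours. POLQ was -0.78 from its neighbours, beside -0.78 for BRCA2, but was itself at -0.26 with its neighbours at 0.52. BRIP1, FANCI and RAD50 followed, at distances of -0.68, -0.54 and -0.54. BRIP1 was at -0.25 beside 0.44, FANCI at -0.81 beside -0.27 and RAD50 at -0.49 beside 0.049. For POLQ and BRIP1 the rise of the neighbours was larger than the fall of the gene. FANCE was at 1.21 beside -0.082, the largest distance above the neighbours of any member. In MCF10CA1a, BRCA1 was at 0.22 beside 0.31 and BARD1 at -0.51 beside -0.019.

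**Figure D4:**
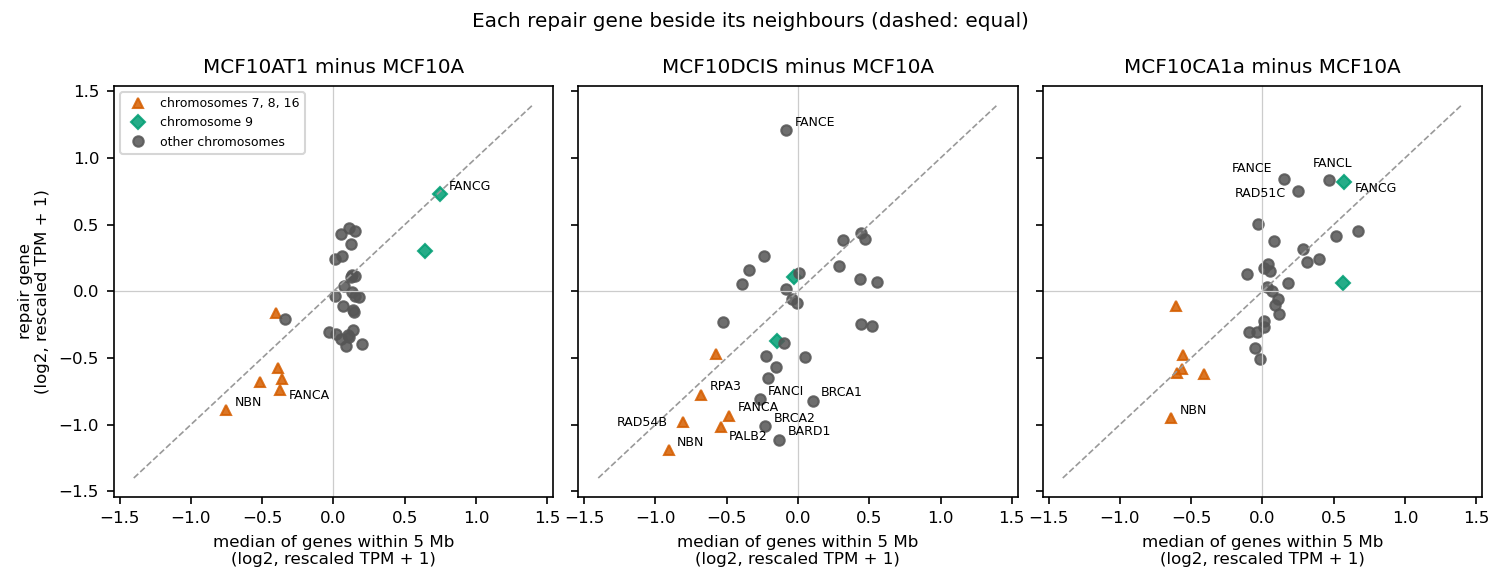
Rescaled log2 difference from MCF10A of each repair gene (vertical) against the median of the genes within 5 Mb of it (horizontal), in the 3 derived lines, with triangles for chromosomes 7, 8 and 16, diamonds for chromosome 9 and circles for the others. The 6 triangles lie below 0 on both axes in every panel, while in MCF10DCIS BRCA1, BRCA2 and BARD1, with others, lie below the dashed line of equality and FANCE above it.

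The rest of the repair and cell cycle machinery gives the setting of these 34 genes, in 6 lists with 236 genes. Of 67 other recombination and Fanconi genes, 1 was higher and 12 (17.9%) lower in MCF10DCIS against MCF10A as deposited, where 14.8% of all genes were lower. Rescaled, 4 (5.97%) were lower where 10.3% of all genes were, so the list was near the background on the first scale and under it on the second. On the rescaled scale ERCC1 and FAAP100 were higher and CLSPN, BRCC3, PSMC3IP and FAAP24 lower, and the list's rescaled median was 0.033 for MCF10AT1, -0.13 for MCF10DCIS and 0.16 for MCF10CA1a. CLSPN, the adaptor through which ATR activates CHEK1, was at 7.29, 5.77, 1.97 and 4.75 TPM in MCF10A, MCF10AT1, MCF10DCIS and MCF10CA1a, lowest in MCF10DCIS. ERCC1, a nuclease subunit that unhooks crosslinks, was at 49.2, 84.6, 153 and 87.7 TPM and highest there. TOP3A, the topoisomerase that works with BLM, was at 8.26, 18.5, 12.3 and 17.4 TPM, lowest in MCF10A. EME2, a partner of the nuclease MUS81, was at 5.74, 2.32, 2.18 and 2.22 TPM, and SPIDR, a scaffold protein that binds BLM, at 25.04, 12.05, 11.4 and 11.1 TPM, both highest in MCF10A.

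None of 14 end joining genes passed the rule in a comparison with MCF10A. As deposited, 5.87%, 14.8% and 7.14% of all genes were lower in MCF10AT1, MCF10DCIS and MCF10CA1a, and 3.39%, 3.56% and 5.97% higher. Of 35 mismatch and excision repair genes, 2 (5.71%), CETN2 and NEIL1, were lower in MCF10DCIS as deposited, where 14.8% of all genes were. In MCF10CA1a 1 (2.86%), PMS2, was lower as deposited, where 7.14% of all genes were. Both counts were under the background. CETN2, a subunit of the damage sensor of nucleotide excision repair, was at 10.8, 9.75, 3.96 and 5.88 TPM, and PMS2, a mismatch repair endonuclease subunit, at 9.44, 5.20, 4.46 and 4.18 TPM. Of DNA replication genes in MCF10DCIS, 10 of 37 (27.0%) passed the rule as lower as deposited, where 14.8% of all genes did. Rescaled, 4 (PCNA, POLD3, GINS1 and ORC6) of 37 (10.8%) did, about the 10.3% of all genes. The list's medians were -0.73 as deposited and -0.41 rescaled, beside -0.38 and -0.094 for all genes and -0.50 and -0.25 for the 34 members. PCNA, the sliding clamp of replication, was at 176, 110.1, 54.2 and 146 TPM and GINS1, of the replicative helicase, at 14.4, 8.49, 4.60 and 12.98 TPM, both lowest in MCF10DCIS. Mitosis genes had rescaled medians of 0.18, -0.13 and 0.46. In MCF10DCIS 3 of 30 (10%) were lower as deposited, where 14.8% of all genes were. Rescaled, 1 (3.33%) was, where 10.3% of all genes were. The 2 furthest past the rule as deposited were NDC80, a kinetochore gene, and UBE2C, a ubiquitin carrier of mitotic exit. NDC80 was at 16.3, 12.4, 5.06 and 12.8 TPM and UBE2C at 88.3, 65.6, 35.4 and 106 TPM.

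Of 22 cell cycle transcription regulators, 1 was higher and 9 (40.9%) lower in MCF10DCIS as deposited, and 1 higher and 7 (31.8%) lower rescaled, where 14.8% and 10.3% of all genes were lower. E2F2, an activator of S-phase genes, was at 6.17, 2.14, 0.488 and 1.52 TPM, and CCNE2, the cyclin E2 gene, at 8.23, 3.65, 1.02 and 3.27 TPM, both lowest in MCF10DCIS. TFDP2, a dimer partner of the E2F factors, was at 5.34, 9.02, 18.6 and 20.1 TPM and highest in MCF10CA1a. The medians of the replication and regulator lists were below that of all genes in MCF10DCIS on both scales, as was that of the BRCA group. The median of the mitosis list was closer to that of all genes there. It was -0.45 as deposited and -0.13 rescaled, beside -0.38 and -0.094. The part of the share of dividing cells in the members' values was not tested. FAAP100, BRCC3, PSMC3IP, FAAP24, NEIL1, POLD3 and ORC6 were named after their values were seen, to account for small counts.

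**Figure D5:**
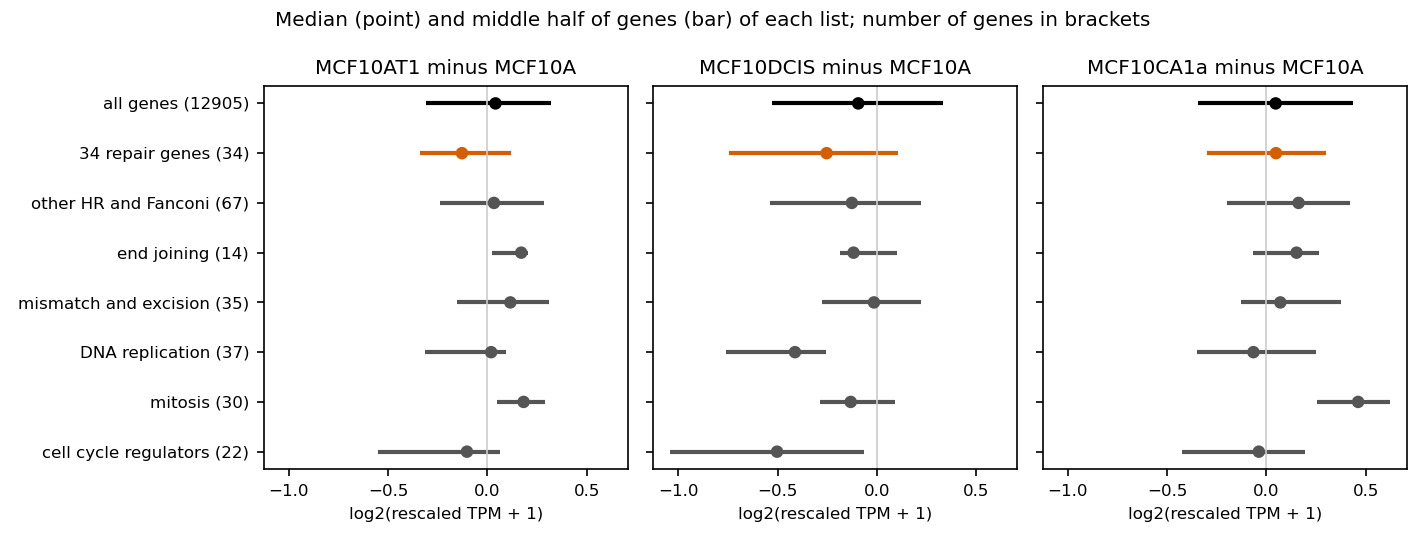
Rescaled log2 difference from MCF10A in the 3 derived lines for all genes, the 34 repair genes and the 6 other lists, with the median as a point and a bar from the first to the third quartile over genes, which is no error of the median. The DNA replication and cell cycle regulator lists have the lowest medians in MCF10DCIS, and mitosis genes the highest in MCF10CA1a.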

How the data were processed

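Total RNA of 4 lines was sequenced in 3 libraries each with a stranded kit, per the labels' protocols. STAR and edgeR were among the tools and hg38 the build, per the submitters' processing notes. No source used here names their versions, the gene models or how strands were counted. The authors deposited TPM as 1 mean per line. The planned limma fit needs values per library and was not run; a rule of size took its place, and precision is unknown. Of 59427 symbols, 13108 with at least 1 TPM in at least 1 line entered, and differences used log2(TPM + 1). Rescaled TPM were also computed. Coordinates came from GENCODE 29 and promoters from RefSeq GRCh38.p14. Python 3.11.15 with numpy 2.4.6, pandas 2.3.3 and matplotlib 3.10.9 was used. The difference, the size rule and median-of-ratios scaling were run on simulated data without noise, with changes well past the rule. That run checks only that these steps compute as written. Rescaling, motif matches and neighbourhoods were not part of it. All members are described by role. From each other list the 2 genes furthest past the size rule in a comparison with MCF10A, with at least 5 TPM in the higher line, could be named. Up to 6 promoters were chosen by the largest rescaled difference from MCF10A, with 2 TPM or more in the higher of both lines and none on chromosome 8, and FANCL was left out because its window lay in annotated exons. Members and lists were chosen with earlier results of these data known. The 5 Mb neighbourhood was added after the data were seen.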

Additional observations from a re-analysis of the deposited data

How the results depend on the processing

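Alternatives were a pseudocount of 0.1, no filter, a filter of 5 TPM, rescaled TPM, median-of-ratios scaling, quantile normalization and a size rule of 1.5-fold. The members' median in MCF10CA1a against MCF10A changed sign, from -0.085 as reported to 0.049 with rescaled TPM and 0.0073 with quantile normalization, and was -0.0059 with median-of-ratios scaling. In the other 5 comparisons it kept its sign. The sign of a member's difference was the same in all 7 settings other than the size rule for 28 of 34 members in MCF10AT1, 23 in MCF10DCIS and 29 in MCF10CA1a against MCF10A. In MCF10DCIS against MCF10A, the 9 lower members (14.8% of all genes) became 4 with rescaled TPM (10.3%), 1 with median-of-ratios scaling (6.44%), 1 with quantile normalization (6.19%) and 16 at 1.5-fold (35.4%), and 1 was higher (FANCE) in each of these 4, where 6.41% to 7.84% of all genes were. The median there was -0.14 with median-of-ratios scaling and -0.093 with quantile normalization, beside -0.50. In MCF10AT1 against MCF10A, 1 was lower with the pseudocount of 0.1 (9.24% of all genes) and 5 at 1.5-fold (15.3%), beside 0. In MCF10CA1a against MCF10A, 0 were lower with rescaled TPM (7.77% of all genes), median-of-ratios scaling (6.02%) or quantile normalization (6.03%). At 1.5-fold 6 were lower, 17.6% of members and of all genes alike, and 3 were higher (8.82% beside 13.0% of all genes). In MCF10DCIS against MCF10AT1, 1 was lower with the pseudocount of 0.1 (13.5% of all genes) and 10 at 1.5-fold (26.0%), and the median was -0.047 with median-of-ratios scaling and -0.087 with quantile normalization, beside -0.39. In MCF10CA1a against MCF10DCIS, 3 were higher with the pseudocount of 0.1 (11.2% of all genes), 0 with median-of-ratios scaling (2.90%) or quantile normalization (2.82%) and 11 at 1.5-fold (21.7%), beside 1, and the median was 0.16 and 0.15 with those scalings, beside 0.47. In MCF10CA1a against MCF10AT1, 2 were higher at 1.5-fold (13.0% of all genes), beside 1. A smaller size rule counts more genes by construction, and the cause of the other shifts was not tested. No paired analysis was possible because the table holds 1 mean per line. For the same reason leaving out each library, the replicate block and limma with only the compared lines were not run. The depth is unknown, so low genes such as BRCA2, BRIP1 and FANCM have an unknown precision.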

Other observations

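Several repair genes overlap other genes, and the strand setting of the counting is not given in the sources used here. NBN overlaps DECR1, an enzyme gene of fatty acid oxidation on the opposite strand, which was at 79.2, 42.5, 37.7 and 37.2 TPM in MCF10A, MCF10AT1, MCF10DCIS and MCF10CA1a, highest in MCF10A as NBN was. RPA3 overlaps UMAD1 on the opposite strand, at 6.72, 3.08, 1.74 and 2.60 TPM, also highest in MCF10A. BRCA1 overlaps the non-coding gene NBR2 on the opposite strand, at 2.16, 1.85, 1.07 and 2.40 TPM, lowest in MCF10DCIS and highest in MCF10CA1a as BRCA1 was. FANCI overlaps POLG, the mitochondrial DNA polymerase gene, at 15.4, 18.1, 18.1 and 15.3 TPM, which did not have the order of FANCI. XRCC3 overlaps KLC1, a kinesin light chain gene, at 39.2, 40.7, 29.6 and 38.7 TPM. Whether reads were shared between overlapping genes is not known here, and their part in the members' values was not tested.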
